A study of Homo sapiens with 15 samples.

Results

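The miR-17-92 cluster is a group of miRNAs cut from the transcript of MIR17HG on chromosome 13. Its 10 mature miRNAs, the major and minor arms of 4 hairpins and the 3p arm of the other 2, were found by name in a table of 1619 mature miRNAs, and all 10 passed the filter on low counts. The small RNA libraries came from DiFi, a long-established line of human colorectal carcinoma, in a study that tried ways of culturing the cells so that secreted carriers of small RNA could be collected. The libraries fell into 6 groups of 2: filtered HDM, unfiltered HDM, cell pellets, and cells of plates 1, 2 and 3. Each group held 1 HF6 and 1 HF7 library. HDM media and regular media added 1 library each. Neither HDM nor HF is written out in full in the labels, which name no treatment, time or clone. Wherever a pair of values is given below, HF6 comes before HF7. The labels do not say whether HF6 and HF7 were separate cultures, so each p-value reflects no more than the spread between libraries, which may be technical.

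A miRNA hairpin is cut into a duplex, of which 1 strand usually enters an Argonaute protein and is kept, while the other strand, the minor arm, is mostly lost. The kept strand pairs with target mRNAs mainly through its seed, bases 2 to 8 from the 5′ end, and the targets are repressed. The miR-17-92 transcript is induced by MYC, is amplified or highly expressed in lymphomas and colorectal tumours, and is known for raising proliferation and survival through targets such as BIM and CDKN1A.

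The 6 hairpins span 787 bp on the plus strand, chr13:91350605-91351391 (GRCh38). They lie within the MIR17HG gene (chr13:91347820-91354579), in an exon of 2 of its 3 transcripts in the GENCODE annotation. The mature sequences are printed because their seeds divide the major arms into families and show which members are nearly identical. They are RefSeq sequences (GRCh38.p14), matched for all 10 members and identical to those in the deposited table, with the seed in capitals. The prefix hsa, for human, is left out elsewhere.
hsa-miR-17-5p: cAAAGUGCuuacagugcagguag
hsa-miR-20a-5p: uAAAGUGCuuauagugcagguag
hsa-miR-18a-5p: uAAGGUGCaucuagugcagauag
hsa-miR-19a-3p: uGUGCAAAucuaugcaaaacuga
hsa-miR-19b-3p: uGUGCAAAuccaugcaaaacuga
hsa-miR-92a-3p: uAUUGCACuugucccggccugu
hsa-miR-17-3p: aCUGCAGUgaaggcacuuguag
hsa-miR-18a-3p: aCUGCCCUaagugcuccuucugg
hsa-miR-20a-3p: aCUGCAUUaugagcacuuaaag
hsa-miR-92a-1-5p: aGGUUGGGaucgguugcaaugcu
miR-17-5p and miR-20a-5p share a seed and differ by C1U and C12U, counted from the 5′ end with the base of miR-17-5p first. miR-19a-3p and miR-19b-3p differ by U11C alone. None of the minor arms shares its seed with another entry of the table.

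The hairpin of miR-92a is shown because its arms gave the widest contrast between groups. It lies at chr13:91351314-91351391, and its capitals mark miR-92a-1-5p and then miR-92a-3p.
MIR92A1: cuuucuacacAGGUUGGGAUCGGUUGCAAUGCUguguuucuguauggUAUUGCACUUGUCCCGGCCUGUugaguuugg
miR-92a-3p and miR-19b-3p are also encoded on chromosome X, in the miR-106a-363 cluster, at chrX:134169544-134169565 and chrX:134169683-134169705. Reads of these 2 members cannot be assigned to either locus. miR-92a-1-5p has a single location, so it is the arm specific to the chromosome 13 copy.

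Library totals lay between 205747 and 4896931 counts, and the shallowest were unfiltered HDM HF7 (205747) and the HF7 cell pellet (313398). Epithelial and intestinal marker miRNAs, among them miR-200c-3p and miR-192-5p, summed to between 199554 and 254102 CPM, counts set to the same total in each library, in the 12 replicated libraries, and all 6 were present in every library. The endothelial marker miR-126-3p was the only one of 5 stromal and endothelial markers above 4 counts in any library. That list summed to between 12.9 and 14.6 CPM in filtered HDM, between 14.6 and 29.7 in unfiltered HDM, between 78.3 and 128 in pellets, between 76.6 and 94.6 in plate 1, between 59.1 and 62.8 in plate 2 and between 32.9 and 39.3 in plate 3. Of the 4 leukocyte markers, miR-223-3p was at 0 in 12 of 14 libraries while miR-142-3p reached 2839 CPM. The leukocyte list summed to between 1379 and 1547 CPM in filtered HDM, below the other replicated libraries, which had between 2542 and 2949 CPM in unfiltered HDM, between 2756 and 2795 in pellets and between 2458 and 4013 on the plates. The part of these markers in the results below was not tested. All levels are relative to the other miRNAs of a library, so that fewer cells and less RNA per cell cannot be told apart.

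The cluster supplied 7.79% and 7.59% of all miRNA counts in filtered HDM, and 7.59% and 6.94% in unfiltered HDM. It supplied 3.68% and 4.42% in the cell pellets. Plate 1 held 4.24% and 3.90%, plate 2 held 6.25% and 7.18%, and plate 3 held 6.41% and 6.84%. HDM media, at 9.45%, had the highest share of the 14 libraries, and regular media had 7.84%. Pellets and plate 1 thus formed a low set and the other 10 libraries a high set. These shares are of total counts. With the trimmed mean of M values (TMM) scaling used for the tests, factors ran from 0.720 in the HF6 pellet to 1.32 in unfiltered HDM HF7, so shares and TMM-normalised CPM are different scales.

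**Figure D1:**
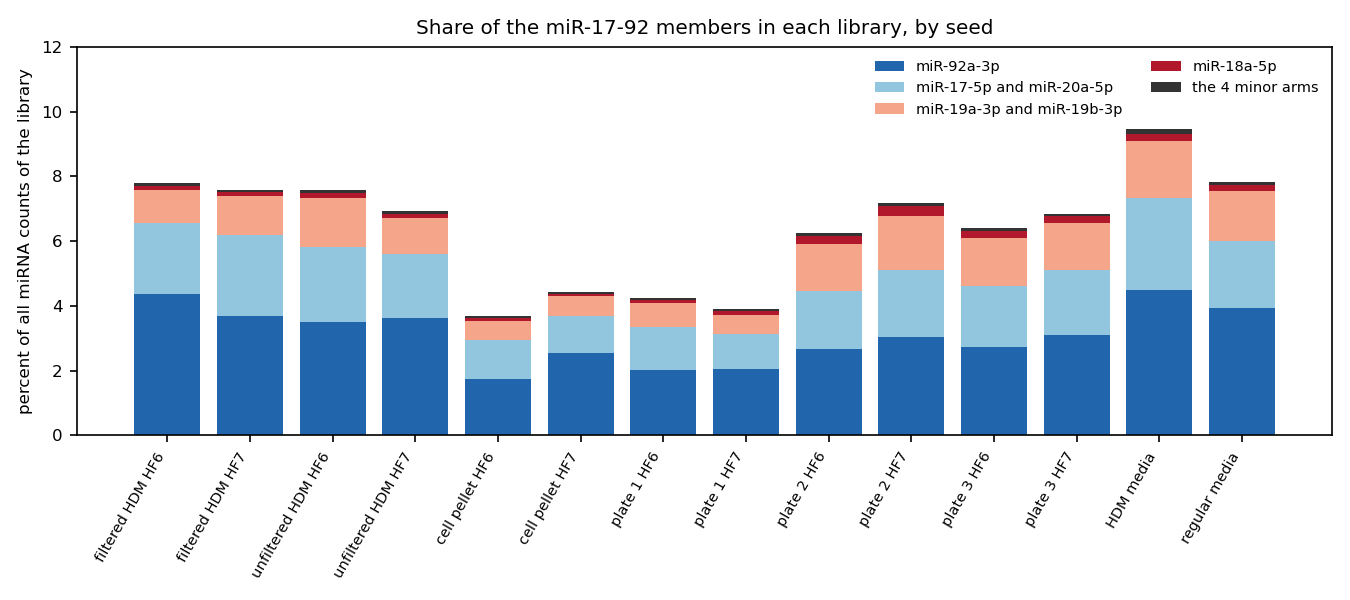
Percent of all miRNA counts of each library held by the 10 members, stacked by seed, with the 4 minor arms together, 1 bar per library. Pellets and plate 1 lie between 3.68% and 4.42%, and all other libraries between 6.25% and 9.45%.

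Within the cluster the members differed steeply in level, with miR-92a-3p first in every library. miR-20a-5p, miR-19b-3p and miR-17-5p changed places between libraries. miR-92a-3p, which represses integrins and other regulators of vessels and cell survival, made up from 42.3% to 57.6% of the cluster's counts, and it ranked between 4th and 15th of all miRNAs in every library. miR-20a-5p, known for repressing E2F factors, contributed from 14.8% to 20.8%, miR-19b-3p from 9.88% to 15.9% and miR-17-5p from 10.3% to 13.9%. miR-19a-3p held from 3.37% to 7.39%, and miR-18a-5p from 1.59% to 4.50%. The 4 minor arms together made up from 0.980% to 1.60% over the 12 replicated libraries. The members are 22 or 23 bases long, so no length correction is needed between them, although ligation during library preparation can favour some ends over others.

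miR-92a-1-5p, the minor arm of the miR-92a hairpin, was the member that differed most between HDM and cell pellets. Its TMM-normalised CPM were 209 and 204 in filtered HDM, 149 and 210 in unfiltered HDM, and 24.3 and 25.4 in the pellets. The raw counts behind them were 582 and 367, 371 and 57, and 67 and 7. For the HF7 pellet the exact Poisson interval of 7 counts runs from 2.81 to 14.4 counts at 95%, which covers counting error only. Neither pair of HDM libraries overlapped the pellets, a separation upward that 34.8% of all tested miRNAs showed in filtered HDM and 25.8% in unfiltered HDM.

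In filtered HDM against pellets, the log2 fold of miR-92a-1-5p was 3.07 ± 0.30 (SE), an 8.41-fold rise, with adjusted p = 2.8e-06 in edgeR's quasi-likelihood test. miR-20a-5p rose by 0.65 ± 0.22 on the log2 scale (adjusted p = 0.031), and miR-92a-3p by 0.49 ± 0.18 (adjusted p = 0.038). With these, 3 of 10 members were higher and none lower, and over all 535 tested miRNAs 39.6% were called and 18.1% were called higher. The members' median log2 fold was 0.39, against 0.07 over all tested. miR-20a-5p measured 12222 and 15097 CPM in filtered HDM, against 9926 and 7452 CPM in pellets. miR-92a-3p stood at 39011 and 35234 CPM in filtered HDM and at 24107 and 28914 CPM in pellets. For neither did the groups overlap, but the miR-20a-5p call was lost without either filtered HDM library (adjusted p up to 0.205). The miR-92a-3p call was lost without either filtered HDM library or the HF6 pellet, with adjusted p up to 0.191, and under DESeq2 and the filter at 50 counts. With limma-voom or with the plates as replicates only the miR-92a-1-5p call remained. Without the HF7 pellet miR-20a-3p was called lower in filtered HDM, at -1.02 ± 0.26 (adjusted p = 0.0029).

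Unfiltered HDM against pellets gave the same leading member. miR-92a-1-5p rose by 2.83 ± 0.31 on the log2 scale, 7.09-fold, with adjusted p = 1.3e-05 in edgeR. With the main settings miR-92a-1-5p was the only one of 10 members called, while 31.8% of all tested miRNAs were called and 14.4% were called higher. The other 9 members lay between -0.32 ± 0.29 for miR-18a-3p and 0.59 ± 0.24 for miR-19b-3p, with adjusted p of 0.075 or more. DESeq2, RLE factors, total counts, no filter on low counts and the stricter count filter called miR-19b-3p higher (adjusted p 0.00025 to 0.045). Its log2 fold was 0.42 to 0.98 when each library was left out in turn. With limma-voom, the replicate block by HF number or the plates as replicates, miR-92a-1-5p remained the only member called. For miR-92a-3p, the major arm of the same hairpin, the log2 fold was 0.16 with a 95% interval from -0.21 to 0.54. Unfiltered HDM had 31889 and 27480 CPM of it, on either side of the 28914 CPM of the HF7 pellet. Where total counts were the only scaling, the median of all miRNAs was 0.64 for unfiltered HDM and 0.56 for filtered HDM, against 0.04 and 0.07 with TMM. With that scaling 8 members were called in each comparison, all higher. Of all 535 tested miRNAs, 211 were called in unfiltered HDM, 164 of them higher, and 247 in filtered HDM, 176 of them higher. On that scale only the excess over those medians is a difference of the members from other miRNAs.

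**Figure D2:**
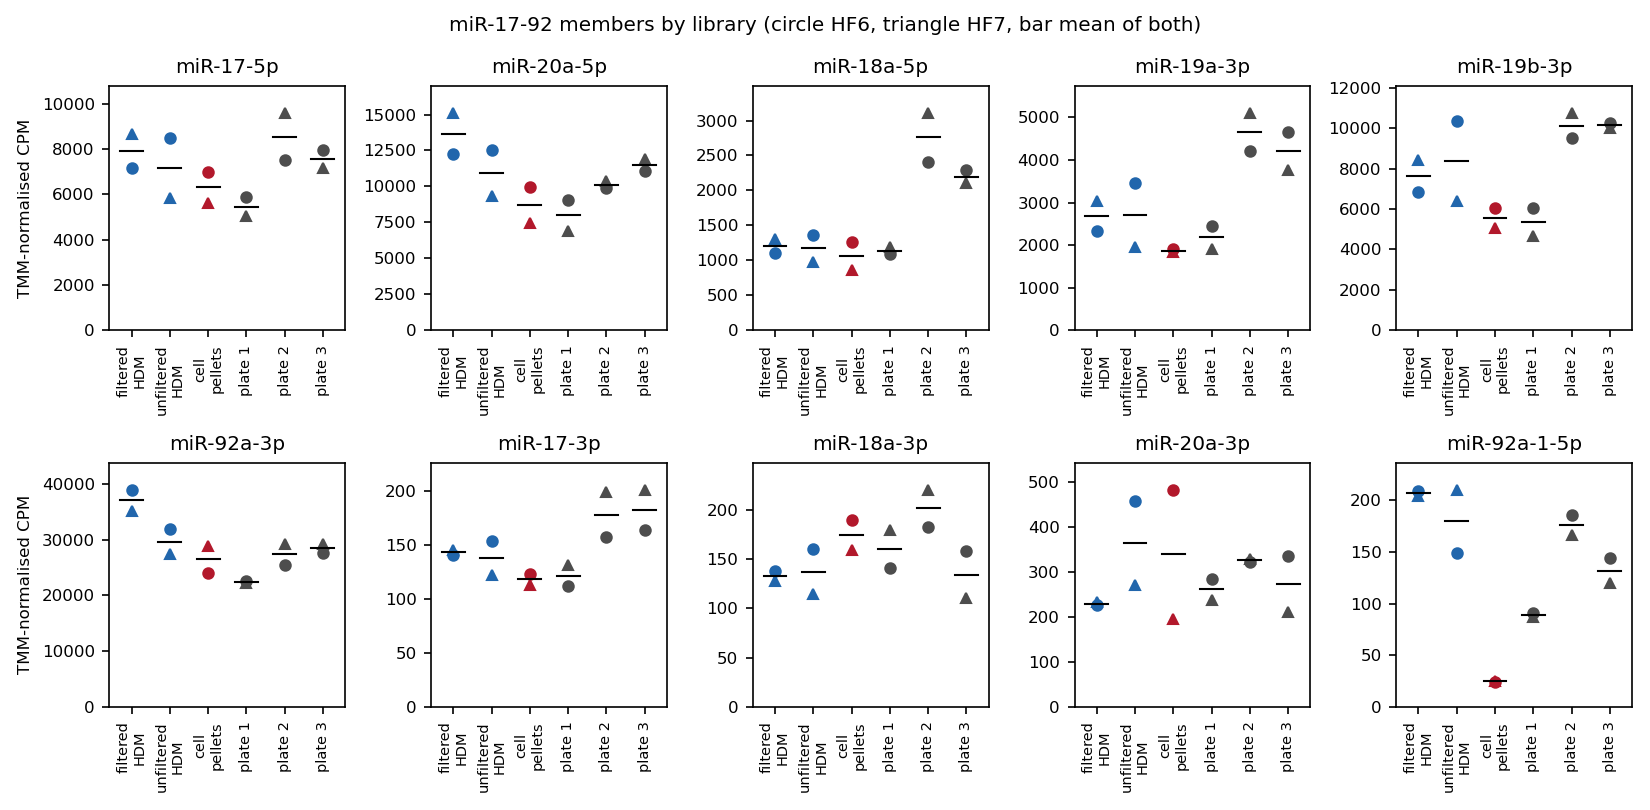
TMM-normalised CPM of each member (vertical axis, from 0) in the 12 replicated libraries by group, circles for HF6, triangles for HF7 and a bar for the mean of both. miR-92a-1-5p lies at 24.3 and 25.4 CPM in pellets against 87.0 or more elsewhere, and miR-18a-5p at 2100 or more in plates 2 and 3 against 1362 or less elsewhere.

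The ratio of miR-92a-3p to miR-92a-1-5p within a library does not depend on scaling. It was 186 and 172 in filtered HDM, 213 and 129 in unfiltered HDM, and 984 and 1063 in the pellets. On the plates it was 247 and 255 for plate 1, 137 and 176 for plate 2, and 191 and 244 for plate 3. HDM media had 191 and regular media 199. The pellets thus stood alone, with no overlap with any other library. Pellets differed from plates by 2.33 in mean log2 ratio, or 5.03-fold. The exact permutation test over 2 and 6 libraries gave p = 0.0714, and 0.190 after Benjamini-Hochberg adjustment over 4 hairpins. Its two-sided p is 2 times the smaller one-sided p, and 0.0714 is the smallest it can give with 2 and 6 libraries. HDM minus all 8 cell libraries gave -0.82 (exact permutation p = 0.129, adjusted 0.315), and HDM minus plates -0.24 (exact permutation p = 0.305, adjusted 0.371).

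**Figure D3:**
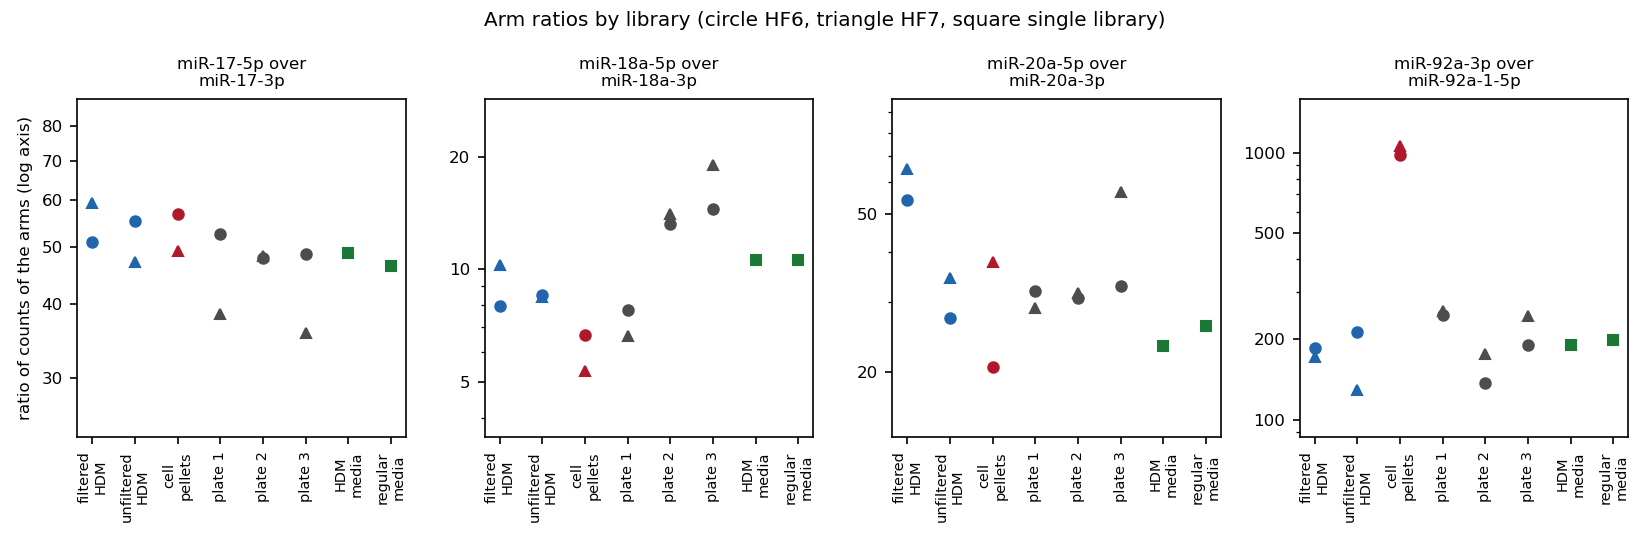
Ratio of the counts of the major over the minor arm (log axis, 0.5 added to each count) in every library for the 4 hairpins with both arms among the members. The ratio of miR-92a lies at 984 and 1063 in pellets against 129 to 255 in the other libraries, and that of miR-18a at 13.2 to 19.0 in plates 2 and 3 against 5.34 to 10.6 elsewhere.

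None of the other 3 hairpins gave an exact p below 0.05 either, which this test could not give in pellets against plates. For miR-18a the ratio of 5p to 3p was 6.65 and 5.34 in pellets, with plate 1 HF7 between them at 6.60, and the 4 libraries of plates 2 and 3 reached from 13.2 to 19.0. Pellets minus plates was -0.98 (exact permutation p = 0.143, adjusted 0.190). For miR-20a the ratio was 54.1 and 64.9 in filtered HDM against 27.4 and 34.4 in unfiltered HDM, while plate 3 HF7 also reached 56.8. The ratio of miR-17 varied least, from 35.7 to 59.4.

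In filtered HDM against plate cells, 3 of 10 members were called, 2 higher and 1 lower, against 25.6% of all tested miRNAs, with 12.7% called higher. miR-92a-1-5p rose by 0.70 ± 0.19 on the log2 scale (adjusted p = 0.013), a 1.63-fold difference. Its level was 209 and 204 CPM in filtered HDM, against 91.1 and 87.0 in plate 1, 186 and 166 in plate 2, and 144 and 120 in plate 3. miR-92a-3p rose by 0.52 ± 0.14 (adjusted p = 0.013), with plate libraries between 22274 and 29268 CPM, all below filtered HDM. Such a separation upward was seen for 16.1% of all tested miRNAs. miR-18a-5p, known for repressing CTGF, fell by 0.66 ± 0.22 (adjusted p = 0.037). It measured 1102 and 1311 CPM in filtered HDM. Plate 1 overlapped these at 1092 and 1186 CPM, whereas plate 2 had 2413 and 3106 and plate 3 had 2291 and 2100. Without either filtered HDM library none of these 3 calls remained, with adjusted p up to 0.191 for miR-92a-3p, 0.148 for miR-92a-1-5p and 0.331 for miR-18a-5p. The miR-18a-5p call was also lost without either plate 1 library, plate 2 HF7 or plate 3 HF7, and all 3 with the plates taken as replicates. With no filter on low counts the miR-92a-1-5p call was lost (adjusted p = 0.066). miR-20a-5p, at 0.49 ± 0.18, was not called with the main settings. DESeq2, RLE factors, total counts, limma-voom and the replicate block by HF number called it higher (adjusted p 0.0034 to 0.0496).

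Unfiltered HDM against plate cells gave 0 of 10 members called, against 10.1% of all tested. In edgeR 2 members had an unadjusted p under 0.05, as had 148 of all 535 miRNAs. DESeq2 called 1 member, miR-18a-5p, lower (adjusted p = 0.020), and 69 of all 535 miRNAs. The members ranged from -0.70 ± 0.22 for miR-18a-5p (adjusted p = 0.053) to 0.46 ± 0.20 for miR-92a-1-5p (adjusted p = 0.17).

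Cell pellets against plate cells compared both kinds of cell sample. Here 4 of 10 members were lower in pellets and none higher, with 32.7% of all tested miRNAs called and 15.0% called lower. miR-92a-1-5p fell by 2.37 ± 0.27 on the log2 scale, to 5.17-fold lower in pellets (adjusted p = 1.9e-05), and each plate library exceeded both pellets, as for 18.3% of all tested miRNAs. miR-19a-3p fell by 0.90 ± 0.23 (adjusted p = 0.0089). Its pellets held 1912 and 1831 CPM, against 2455 and 1910 in plate 1, 4213 and 5102 in plate 2, and 4658 and 3769 in plate 3. miR-18a-5p fell by 0.83 ± 0.22 (adjusted p = 0.010), with 1266 and 859 CPM in pellets. miR-19b-3p, which shares the seed of miR-19a-3p, fell by 0.56 ± 0.20 (adjusted p = 0.047). It stood at 6051 and 5063 CPM in pellets, against 6035 and 4679 in plate 1, 9516 and 10750 in plate 2, and 10278 and 10003 in plate 3. For these last 3, plate 1 overlapped the pellets and plates 2 and 3 stood above them. The miR-19b-3p call was lost without the HF7 pellet, plate 1 HF6, either plate 2 library or plate 3 HF7, with adjusted p up to 0.101. With limma-voom or with the plates as replicates the miR-92a-1-5p call alone remained. Without the HF7 pellet miR-20a-3p was called higher in pellets, at 0.73 ± 0.22 (adjusted p = 0.011). The remaining 6 members lay between -0.41 ± 0.22 for miR-17-3p and 0.31 ± 0.30 for miR-20a-3p. miR-92a-3p differed by 0.03, with a 95% interval from -0.27 to 0.34, so the low miR-92a-1-5p of pellets went with no detected change of its partner arm. The stromal and endothelial list was at 78.3 and 128 CPM in pellets, overlapping plate 1 (76.6 to 94.6 CPM) and above plates 2 and 3, and the pellets had muscle markers between 24.0 and 95.7 CPM against 19.9 or less elsewhere.

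**Figure D4:**
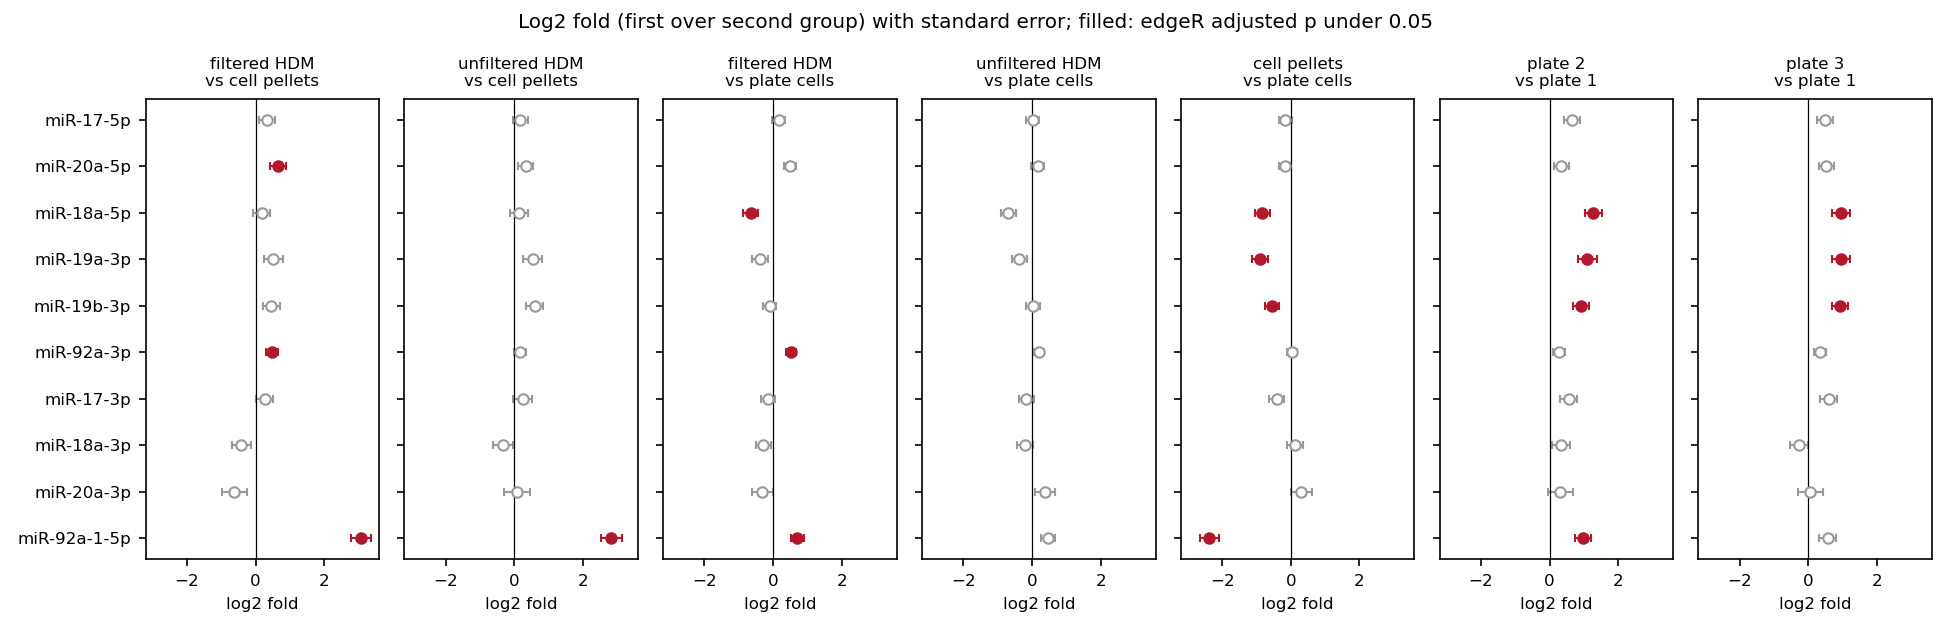
Log2 fold of each member, first group over second, with its standard error, in 7 comparisons, filled where edgeR's adjusted p is under 0.05. miR-92a-1-5p stands at 3.07, 2.83 and -2.37 in the comparisons with pellets, and miR-18a-5p, miR-19a-3p and miR-19b-3p lie between 0.92 and 1.28 in plates 2 and 3 over plate 1.

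The plates themselves differed. In plate 2 over plate 1, 4 of 10 members rose, against 23.4% of all tested miRNAs called and 10.8% called higher. miR-18a-5p rose by 1.28 ± 0.26 on the log2 scale, 2.42-fold (adjusted p = 0.0029), miR-19a-3p by 1.09 ± 0.27 (adjusted p = 0.011), miR-92a-1-5p by 0.98 ± 0.24 (adjusted p = 0.0099) and miR-19b-3p by 0.92 ± 0.24 (adjusted p = 0.015). All 6 others were also above 0, from 0.29 for miR-92a-3p to 0.65 for miR-17-5p, none called with the main settings. The members' median was 0.60, against 0.00 over all tested miRNAs.

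In plate 3 over plate 1, 3 of 10 members rose, with 17.4% of all tested called and 7.48% called higher. miR-18a-5p rose by 0.95 ± 0.26 (adjusted p = 0.020), miR-19a-3p by 0.95 ± 0.27 (adjusted p = 0.026) and miR-19b-3p by 0.92 ± 0.24 (adjusted p = 0.016). Both comparisons share the plate 1 libraries. The libraries of these 3 members did not overlap between plate 1 and plate 2 or 3, a separation that 32.7% of all tested miRNAs showed upward for plate 2 and 31.4% for plate 3. Only the miR-18a-5p call of plate 2 over plate 1 stayed when any 1 of the 4 libraries was left out. The calls of miR-18a-5p and miR-19a-3p in plate 3 over plate 1 were each lost without any 1 of the 4, with adjusted p up to 0.152 and 0.201, and the miR-19b-3p call there was lost without either plate 1 library or plate 3 HF7, with adjusted p up to 0.163. In plate 2 over plate 1, miR-19a-3p and miR-19b-3p were lost without either HF7 library (adjusted p up to 0.125 and 0.155), and miR-92a-1-5p without either plate 1 library or plate 2 HF6 (up to 0.086).

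Plate 3 over plate 2 gave 0 of 10 members called, with 0.187% of all tested miRNAs called. In edgeR 1 member had an unadjusted p under 0.05, as had 44 of all 535 miRNAs. Members lay between -0.60 ± 0.27 for miR-18a-3p and 0.18 ± 0.22 for miR-20a-5p.

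Filtration, tested as filtered over unfiltered HDM, changed 0 of 10 members past the threshold, against 0.561% of all tested miRNAs. No member had an unadjusted p under 0.05 in edgeR, against 38 of all 535 miRNAs. DESeq2 also called 0 members, and 6 of all 535 miRNAs. The lowest was miR-20a-3p at -0.70 ± 0.37 and the highest miR-92a-3p at 0.32 ± 0.18. For miR-92a-1-5p the difference was 0.25, with a 95% interval from -0.29 to 0.78. The labels do not say whether filtered and unfiltered HDM of 1 HF number came from the same fluid.

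HF7 over HF6, taken within groups over 6 pairs, gave 0 of 10 members and 0% of all tested miRNAs called. Of the 535 miRNAs, 42 had an unadjusted p under 0.05, 1 of them a member, and DESeq2 called 1 miRNA. Members lay between -0.46 ± 0.18 for miR-20a-3p and 0.11 ± 0.15 for miR-17-3p.

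With all 12 libraries and the main settings, 4 of the 10 members were called in no comparison: miR-17-5p, miR-17-3p, miR-18a-3p and miR-20a-3p. In plate 2 over plate 1, DESeq2, RLE factors, total counts, no filter, the filter at 50 counts and limma-voom called miR-17-5p higher. Adjusted p there was 0.0030 to 0.039. In plate 3 over plate 1, RLE factors, total counts, the filter at 50 counts and limma-voom called miR-17-3p higher (adjusted p 0.025 to 0.049). Total counts and the filter at 50 counts called miR-17-3p lower in pellets over plates (adjusted p = 0.012 and 0.042). This list of calls under alternatives is not complete. With total counts, edgeR called 8 of the 10 members higher in unfiltered HDM over pellets. miR-18a-3p was not among them (adjusted p = 0.43), so some of the other members named here were. miR-17-5p, the archetype of the AAAGUGC seed and a repressor of CDKN1A, ran from 5047 CPM in plate 1 HF7 to 9580 CPM in plate 2 HF7. miR-17-3p ran from 111 to 201 CPM. miR-18a-3p was between 110 and 221 CPM, with both ends on plates. miR-20a-3p was the most uneven between HF numbers, at 482 and 196 CPM in pellets and at 457 and 269 CPM in unfiltered HDM, against 226 and 232 CPM in filtered HDM.

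The order of group means placed filtered HDM first for miR-92a-1-5p at 207 ± 3.26 CPM (SD, n = 2), then unfiltered HDM at 180 ± 43.1 CPM, plate 2 at 176 ± 13.8 CPM, plate 3 at 132 ± 17.2 CPM, plate 1 at 89.1 ± 2.91 CPM and pellets at 24.8 ± 0.759 CPM. Unfiltered HDM overlapped filtered HDM and plate 2. Plate 3 lay above plate 1 without overlap, but that difference was not called (adjusted p = 0.12).

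The members share their seeds with miRNAs of other loci. miR-17-5p and miR-20a-5p supplied between 49.8% and 59.8% of the counts of the AAAGUGC seed, which 6 entries carry. miR-92a-3p supplied between 80.1% and 88.2% of the AUUGCAC seed, carried by 5 entries. miR-18a-5p supplied 97.4% or more of its seed, and the miR-19 pair all of theirs. miR-17-5p differs from miR-106a-5p by C1A alone, and miR-18a-5p from miR-18b-5p by A20U alone, so reads with an error or trimmed end could move between them. Every major arm had fractional values in 7 to 13 of the 14 libraries, and the 4 minor arms in none.

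The miR-106b-25 cluster on chromosome 7 is the most expressed paralog, and all 6 of its mature miRNAs were tested. Its miR-25-3p has the seed of miR-92a-3p, and its minor arm miR-25-5p was, like miR-92a-1-5p, called in both HDM comparisons with pellets and in pellets against plates, for which reason this pair is shown with seeds in capitals.
miR-25-3p: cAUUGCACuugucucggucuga
miR-25-5p: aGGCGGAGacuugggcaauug
miR-25-5p was at 145 and 157 CPM in filtered HDM, 135 and 103 in unfiltered HDM, 32.7 and 54.4 in pellets, and from 66.1 to 96.5 on the plates. It rose by 1.97 ± 0.29 on the log2 scale in filtered HDM over pellets (adjusted p = 0.00012) and by 1.68 ± 0.30 in unfiltered HDM over pellets (adjusted p = 0.00089), and it fell by 1.04 ± 0.26 in pellets over plates (adjusted p = 0.0070). miR-93-3p, another minor arm, rose by 1.12 ± 0.26 in filtered HDM and by 1.10 ± 0.27 in unfiltered HDM over pellets (adjusted p = 0.0034 and 0.0056), and fell by 0.72 ± 0.22 in pellets over plates (adjusted p = 0.024). The third minor arm, miR-106b-3p, was not called in any of these 3 comparisons, with 454 and 471 CPM in pellets and between 410 and 647 CPM on the plates. The major arms miR-25-3p, miR-93-5p and miR-106b-5p were called in none of them either.

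The arm ratio of miR-25 was 116 and 80.2 in pellets against 36.7 to 68.2 elsewhere, and that of miR-93 was 85.4 and 95.6 against 42.0 to 69.8. For miR-106b the ratio of 5p to 3p was 9.57 and 6.89 in pellets, inside the 5.33 to 14.9 of the other libraries. In filtered HDM over plates, miR-25-5p (0.93 ± 0.19, adjusted p = 0.0034) and miR-93-5p (0.54 ± 0.17, adjusted p = 0.029) rose. No member of the miR-106b-25 cluster was called between plates, where miR-18a-5p, miR-19a-3p and miR-19b-3p rose in both comparisons with plate 1. The median log2 fold of its 6 miRNAs was -0.03 in plate 2 and -0.05 in plate 3 over plate 1. Its miR-106b-5p was nevertheless among the 3 most alike over the 12 libraries for miR-18a-5p, miR-19a-3p and miR-19b-3p (Pearson r = 0.85, 0.88 and 0.89). The absence of a call thus does not show that each of its miRNAs was level between plates. The difference between the clusters was not tested.

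Of the 10 listed miRNAs of the miR-106a-363 cluster, 5 were in the table and 3 were tested. Of these, miR-18b-5p fell by 0.95 ± 0.33 in filtered HDM over pellets (adjusted p = 0.034) and by 0.99 ± 0.26 over plates (adjusted p = 0.013). It had 14.0 and 17.8 CPM in filtered HDM, against 33.4 and 21.8 in pellets and from 22.9 to 40.0 on the plates. Its raw counts were low, from 3 to 161 per library, which limits its precision. Alternative settings are not given here for calls of paralogs. Its near-identical partner miR-18a-5p was lower too in filtered HDM than on plates, with a call there only. miR-106a-5p and miR-20b-5p were never called.

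2 other carriers of the miR-92a seed went separate ways. miR-32-5p fell by 3.81 ± 0.34 in filtered HDM over pellets and fell by 2.51 ± 0.33 in unfiltered HDM over pellets (adjusted p = 1.9e-06 and 7.1e-05), with 58.2 and 52.4 CPM in filtered HDM, 156 and 107 in unfiltered HDM, and 683 and 881 in pellets. miR-92b-3p, at 82.6 to 192 CPM, was called in no comparison.

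The media libraries have no replicates, so no test was made. In total-count CPM, HDM media lay above all 12 replicated libraries for miR-17-5p, miR-17-3p, miR-19b-3p, miR-20a-3p and miR-92a-3p. Its miR-92a-3p was 44802 CPM (exact Poisson interval 44613 to 44991), against 43791 CPM in the highest replicated library. Its miR-20a-3p was 674 CPM (651 to 697), against at most 503 CPM. For the other 5 members HDM media lay within the range of those libraries, and regular media lay within it for all 10. HDM media exceeded regular media for every member, by 1.12-fold for miR-19a-3p up to 1.48-fold for miR-20a-3p. The share of all miRNAs that lay above in either way was not counted, so neither result is shown to be particular to the members. miR-92a-1-5p had 234 CPM in HDM media and 198 CPM in regular media, near its HDM levels on the same scale of 164 to 277 CPM, and above the 17.5 and 22.3 CPM of the pellets. Both libraries of plate 2 also lay inside that HDM range, so this closeness is not particular to HDM.

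Among 173 miRNAs outside the cluster with a mean of 100 CPM or more, the profile of miR-92a-1-5p over the 12 libraries was most like those of miR-27b-5p (Pearson r = 0.94 of log2 CPM), miR-29b-1-5p (0.93) and miR-484 (0.91). miR-92a-3p was most like miR-629-5p (0.94), miR-532-5p (0.89) and miR-93-5p (0.88). miR-106b-5p, of the paralogous cluster, was among the 3 most alike for miR-17-5p (0.85), miR-17-3p (0.89), miR-18a-5p (0.85), miR-19a-3p (0.88) and miR-19b-3p (0.89), and miR-29a-3p for miR-17-5p (0.89), miR-17-3p (0.80), miR-18a-5p (0.81) and miR-19a-3p (0.80). miR-20a-5p was most like miR-660-5p (0.88). The points share libraries, scaling and groups of 2, and the values are descriptions.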

How the data were processed

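Per the labels' protocols, extraction used miRNeasy and library preparation the NEXTflex kit for small RNA. The submitters' processing notes name cutadapt 2.10, Bowtie 1.3.1, FastQC and GRCh38. The authors deposited expected counts per mature miRNA (1619 entries, 14 sample columns), not normalized, of which 4.40% are not whole. The rule behind the fractions, the annotation release and filters are not given in the sources used here, nor is the strand rule. The labels list 15 samples. HDM media without cells has no column in the counts used here, so reads from the medium itself were not measured.

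Values were rounded to whole counts. The 12 replicated libraries were fitted in edgeR 4.0.16 (R 4.3.3) with 1 coefficient per group, TMM factors and filterByExpr by group, which kept 535 miRNAs and 99.96% of counts. The fit had 6 residual degrees of freedom, or 5 with HF number as a term, with 0.214 as the common biological coefficient of variation. All groups share this spread. Plate cells are the mean of the 3 plate coefficients. Calls had an adjusted p (Benjamini-Hochberg, per comparison) under 0.05, and the standard error is the log2 fold over the square root of F. CPM are TMM-normalised unless named as total-count CPM. Arm ratios used exact permutation tests (scipy 1.17.1). The fit was tested on simulated data. The 2 libraries of each group differed by a chi-square of 16.6 to 167 per degree of freedom, so none was counted as a copy of the other.

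All 10 members are described in every comparison, with values in every library for members called anywhere. Other miRNAs named are called members of fixed lists (paralogous clusters, carriers of the miR-92a seed, cell type markers), same-seed partners, or the 3 most alike by correlation. The members and lists were chosen with earlier results of these data known. Alternatives were DESeq2 1.42.0, RLE factors, scaling by total counts alone, testing with no filter on low counts, at least 50 counts in 2 libraries, limma-voom (limma 3.58.1), a replicate block by HF number, the 3 plates as replicates of HF6 and HF7, and leaving out each library in turn.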

Additional observations from a re-analysis of the deposited data

Results flagged for a closer look

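The minor arms of the MIR19A and MIR19B1 hairpins are not among the 10 members, and they gave reads outside the comparisons. miR-19b-1-5p was above 3 counts in all 14 libraries, with its highest count of 357 in HDM media (74.2 total-count CPM) and 139 in regular media. miR-19a-5p was above 3 counts in 8 of 14 libraries, with a highest count of 24, also in HDM media, and was at 0 in unfiltered HDM HF7 and the HF7 pellet. Neither the source nor the difference between libraries was tested for these arms.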

How the results depend on the processing

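The calls of miR-92a-1-5p in both HDM comparisons with pellets and in pellets against plates, and of miR-18a-5p in plate 2 over plate 1, held under every alternative run, and no called member changed sign. With DESeq2, members called were 2 in unfiltered HDM over pellets, 1 in unfiltered HDM over plates and 5 in plate 2 over plate 1. Of all 535 tested miRNAs, DESeq2 called 155, 69 and 104 in these comparisons. RLE factors gave 2, 1 and 5 members in the same comparisons, and 5 in plate 3 over plate 1. They called 188, 79, 138 and 112 of all 535 in turn. Total counts as the only scaling gave 8 members in unfiltered and 8 in filtered HDM over pellets, and 3 in unfiltered HDM over plates. That scaling gave 7 in pellets over plates, 7 in plate 2 and 8 in plate 3 over plate 1. In the same order it called 211, 247, 106, 210, 149 and 139 of all 535. No low-count filter gave 2 members in unfiltered HDM over pellets, with 165 of all 1554 tested miRNAs called. The filter at 50 counts gave 2 members there, 1 in unfiltered HDM over plates, 7 in plate 2 and 7 in plate 3 over plate 1. It called 157, 87, 123 and 103 of all 340 tested miRNAs in the same order. limma-voom gave 1 member in filtered HDM over pellets, 1 in unfiltered HDM over plates, 1 in pellets over plates and 6 in plate 3 over plate 1. It called 147, 82, 72 and 170 of all 535 in turn. Plates as replicates gave 1 member in filtered HDM over pellets, 0 in filtered HDM over plates and 1 in pellets over plates. Of all 535 they gave 97, 33 and 44. Leaving out 1 library gave 1 to 3 members in unfiltered and 1 to 4 in filtered HDM over pellets, 0 to 0 in filtered over unfiltered HDM and in unfiltered HDM over plates, 0 to 3 in filtered HDM over plates, 3 to 4 in pellets over plates, 1 to 3 in plate 2 and 0 to 1 in plate 3 over plate 1. Without the HF7 pellet 1 of 4 in filtered HDM over pellets was lower, and 1 of 4 in pellets over plates higher, miR-20a-3p in both.

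Over all miRNAs, limma-voom called 107 against 170 in unfiltered HDM over pellets, 82 against 54 in unfiltered HDM over plates, 213 against 137 in filtered HDM over plates, 72 against 175 in pellets over plates, 204 against 125 in plate 2 and 170 against 93 in plate 3 over plate 1. Plates as replicates called 59 in unfiltered and 97 (against 212) in filtered HDM over pellets, 0 (against 3) in filtered over unfiltered HDM, 8 in unfiltered and 33 in filtered HDM over plates, and 44 in pellets over plates. Unfiltered HDM over plates gave 106 with total counts and 87 at 50 counts. Filtered over unfiltered HDM gave 6 with DESeq2 and 7 with no filter. Plate 3 over plate 2, with 1 call, gave 6 with DESeq2, 6 with RLE, 6 with total counts, 10 with no filter, 0 at 50 counts and 14 with limma-voom. HF7 over HF6, with 0, gave 1 with DESeq2 and 2 with no filter. Without 1 library the counts were 130 to 255 in filtered and 74 to 216 in unfiltered HDM over pellets, 34 to 134 and 12 to 52 over plates, 117 to 231 in pellets over plates, 51 to 63 in plate 2 and 33 to 62 in plate 3 over plate 1, 0 to 3 in plate 3 over plate 2, 0 to 3 in filtered over unfiltered HDM and 0 to 0 in HF7 over HF6.

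Differences of HF7 from HF6 within a group, over 281 miRNAs, correlated between -0.21 and 0.38 across pairs of groups. With 1 pair of libraries per group, these values cannot show whether samples of 1 HF number share a source. A replicate block by HF number gave 5 calls in plate 3 over plate 2 and otherwise stayed within 1.5 times each count. The crossed pairing of filtered and unfiltered HDM, chosen after seeing the data, gave 1 call and 0 members.

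Uncalled differences changed sign in a few cases. In unfiltered HDM over pellets miR-18a-3p was 0.27 with total counts. In pellets over plates miR-92a-3p was -0.26 with total counts, -0.11 with no filter, -0.041 at 50 counts and -0.012 with limma-voom, and -0.14 to 0.16 without 1 library. miR-20a-3p was -0.051 there with total counts and -0.54 to 0.73 without 1 library, and -1.02 to 0.23 in filtered HDM over pellets. The arm ratio of miR-20a, pellets minus plates, was -0.75 to 0.13 without 1 library. The cause of these changes was not tested. Counts of 7 and 57 for miR-92a-1-5p in the shallowest libraries limit its precision there.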
